A study of Mus musculus with 10 samples.

Results

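Smooth muscle cells and pericytes are the mural cells of blood vessels. A set of 33 genes was examined that are used as markers of these cells or belong to the same contractile and cytoskeletal families. The set was given by name and split by role into 10 contractile smooth muscle genes, 14 pericyte genes, 7 broadly expressed cytoskeletal genes and 2 others. Of the 33, 32 had a row in the gene tables, among 55401 genes in all, and Ndufa4l2os is named only. All 32 had an FPKM above 0 in each of the 10 mice. The genes were measured in left ventricle (LV) of wild type (WT) mice at 4 weeks of age, 5 that had neonatal ascending aorta constriction (nAAC) and 5 that had a sham operation, with 1 library per mouse. In nAAC the ascending aorta is narrowed surgically soon after birth, which loads the LV with pressure through growth. All pups were reared by their mothers, the labels do not give the sex of the mice, and the values come from pieces of whole tissue, not from sorted cells. A marker gene is therefore read from all cells that express it, and in such bulk samples fewer cells of a type and less RNA per cell cannot be told apart.

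Arterial smooth muscle cells contract through smooth muscle myosin sliding on actin filaments that are dressed with transgelin, calponin and caldesmon, and most of the genes involved are driven by serum response factor (SRF) with its coactivator myocardin. Pericytes sit on capillaries within the endothelial basement membrane and are recruited by platelet-derived growth factor B from endothelial cells acting on PDGFRB, while Notch3 signalling helps mural cells mature. No single gene marks either cell type alone. The heart muscle cell also makes Myocd, Abcc9 and Synpo2, and fibroblasts make Vim, Cald1, Myh9, Myh10 and Cygb.

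SRF binds a short motif, the CArG box, which made the promoters of these genes the regulatory sequence most relevant to the comparison. Promoter sequences from RefSeq (build GRCm38.p6, 250 bases before to 50 after the start of the transcript) were found for 23 of the 33 genes, 26 promoters in all. Those of Tagln, Myh11, Myocd, Csrp2, Pdgfrb, Heyl, Higd1b, Cygb, Pdgfb and Ndufa4l2os were not searched. The CArG box was searched on both strands, and 1 of the 26 (3.85%) held a match, that of Cnn2, against 535 of 32851 promoters (1.63%) of the whole genome. Among other genes of smooth muscle contraction and of SRF and myocardin, a list taken up again further on, 4 of 27 promoters (14.8%) held one, those of Srf, Myl9, Myl6 and Vcl. A match in these windows is a description of letters and does not show binding. The promoters of the calponin paralogs Cnn2 and Cnn1 and of Srf itself are printed because all 3 genes rose in nAAC, while the box is in Cnn2 and Srf and not in this window of Cnn1. They lie at chr10:79988350-79988649 (plus strand), chr9:22099003-22099302 (plus strand) and chr17:46556113-46556412 (minus strand). Each is written 5′ to 3′ along the gene, with the CArG box in capitals. The box of Cnn2 begins 56 bases before the start, and the pair in Srf begin 82 and 62 bases before it.
Cnn2: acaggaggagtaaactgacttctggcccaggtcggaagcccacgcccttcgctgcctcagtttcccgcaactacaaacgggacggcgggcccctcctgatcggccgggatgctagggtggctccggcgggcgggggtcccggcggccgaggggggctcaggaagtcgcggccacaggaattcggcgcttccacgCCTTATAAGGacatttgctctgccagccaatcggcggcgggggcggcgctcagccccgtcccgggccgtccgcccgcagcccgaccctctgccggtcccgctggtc
Cnn1: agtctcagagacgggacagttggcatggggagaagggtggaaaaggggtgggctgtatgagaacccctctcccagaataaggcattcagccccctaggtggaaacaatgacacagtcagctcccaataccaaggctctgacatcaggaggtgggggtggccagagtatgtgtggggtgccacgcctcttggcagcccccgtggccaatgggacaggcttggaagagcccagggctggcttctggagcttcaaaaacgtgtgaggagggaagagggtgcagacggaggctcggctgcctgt
Srf: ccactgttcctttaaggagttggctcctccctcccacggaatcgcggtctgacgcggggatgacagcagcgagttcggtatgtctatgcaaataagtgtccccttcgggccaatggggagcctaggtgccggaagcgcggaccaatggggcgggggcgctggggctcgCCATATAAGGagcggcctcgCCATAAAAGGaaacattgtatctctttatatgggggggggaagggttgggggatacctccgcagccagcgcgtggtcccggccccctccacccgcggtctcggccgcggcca

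The values are FPKM (fragment counts divided by transcript length and by the mapped total), which can be compared between genes as a level per length. The estimated depth was 4.86 to 6.82 gigabases of aligned sequence in nAAC and 5.06 to 5.24 in sham libraries. Genes at an FPKM of at least 1 numbered 11889 to 12455 in nAAC and 11182 to 11721 in sham, and mitochondrial transcripts took 32.8% to 39.9% of TPM (transcript abundance scaled to a fixed total) in nAAC and 33.7% to 49.8% in sham. Differences were tested with limma on log2(FPKM + 1) for the 11867 genes whose mean FPKM reached 1, with Benjamini-Hochberg adjustment over all of them. Fold changes are nAAC minus sham on that log2 scale, which understates the change of low genes. A gene "passed" with an adjusted p below 0.05 and was "called" if its log2 fold change was also above 1 in size. The median log2 fold change over all genes tested was 0.22, so FPKM values lay somewhat higher in nAAC across the transcriptome. Nothing says whether mice shared a litter, so the p-values measure the spread between these mice only.

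Of the 31 genes tested, 22 rose in nAAC, 9 did not pass and 0 fell in the limma fit. Only 1 of the 9, Abcc9, had a lower level in nAAC at an unadjusted p below 0.05. In the whole transcriptome 27.1% of genes passed upward and 4.60% downward, against 71.0% and 0 among these genes. With the fold threshold added, 12 of the 31 (38.7%) were called up and 0 down, where the background was 5.01% up and 0.893% down. The levels of the 5 nAAC mice all lay above those of the 5 sham mice for 19 genes and below for 0, against 18.9% and 3.46% of all genes tested. The median log2 fold change of the set was 0.81. The members were named with earlier results of these data known, so these shares describe the set and are given no test. Cnn1 and Lmod1 entered the test only through the nAAC group, having a sham mean below 1, and without them 11 of 29 were called and 20 rose.

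By role, 4 of 10 contractile genes were called and 7 rose, with a median log2 fold change of 0.85. Without Cnn1 and Lmod1, 3 of 8 contractile genes were called and 5 rose, with a median of 0.79. Of 13 pericyte genes tested 3 were called and 7 rose, with a median of 0.69, and their range was the widest, from -0.53 to 1.33. All 7 cytoskeletal genes rose and 5 were called, with a median of 1.07. The counts depended on scaling. After median-ratio scaling 7 of the 31 were called and after upper-quartile scaling 3, with 19 rising under each. These scalings also took the share of all genes called up to 3.13% and 2.74%, and the share passing upward to 13.2% and 11.2%. The median over all genes went to -0.00 and -0.05. The median of the set was then 0.63 and 0.57. Removal of each library's trend with GC content and transcript length left 3 called, 17 that rose and 3 that fell, the last being Smtn (-0.54), Abcc9 (-0.76) and Vtn (-0.59). After this removal 2.69% of all genes tested were called up and 14.2% passed upward. With upper-quartile scaling and with these trends removed, 0 of the 13 pericyte genes were called and 1 of the 10 contractile genes, Tagln, although Cspg4 (0.98 and 0.74), Cygb (just under 1.0, and 0.90) and Heyl (0.77 and 0.65) each still passed the adjusted p of limma.

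**Figure D1:**
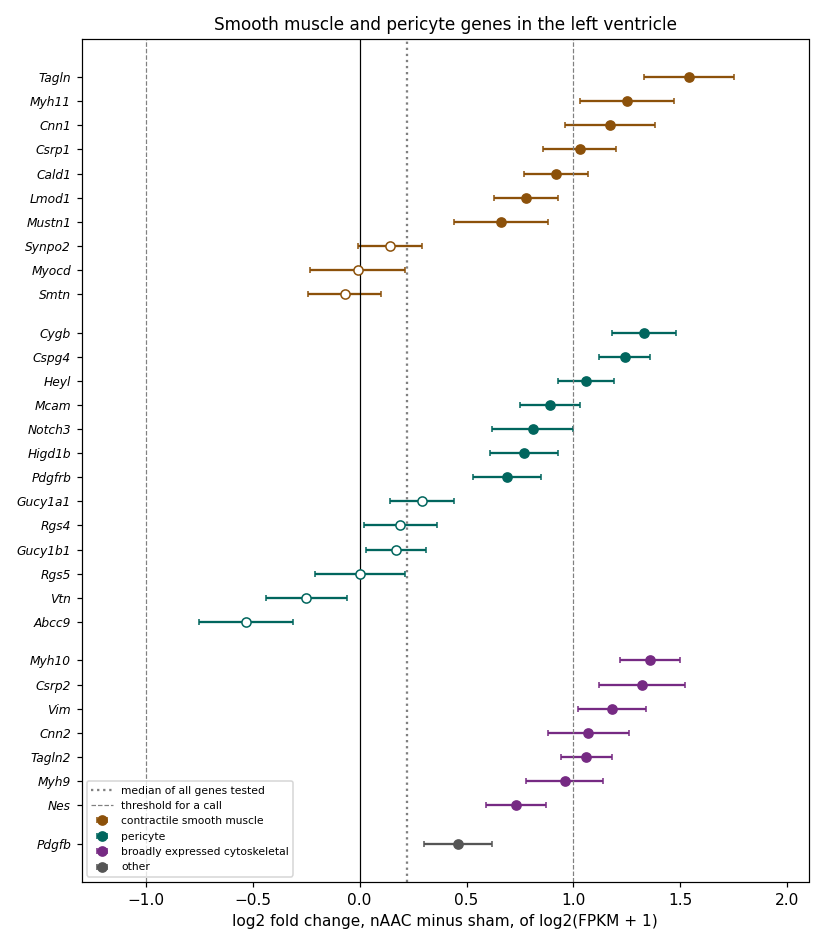
Log2 fold change (nAAC minus sham, log2(FPKM + 1) scale, horizontal axis) of the 31 genes tested, grouped by role, with bars of 1 standard error from limma on 5 mice per group. Filled points passed at an adjusted p below 0.05, the dotted line marks the median of all genes tested at 0.22, and every gene that passed lies to the right of 0, from Pdgfb at 0.46 to Tagln at 1.54.

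Among the contractile genes, Tagln, which encodes the actin-binding protein transgelin (SM22), had the highest fold change on the log2(FPKM + 1) scale. With a pseudocount of 0.1 in place of 1, the low gene Cnn1 stood above it (1.88 against 1.62). The Tagln gene (ENSMUSG00000032085) lies on chromosome 9 from 45929619 to 45936058 on the minus strand. Tagln stood at 20.4, 34.4, 40.6, 44.6 and 27.1 FPKM in nAAC mice 1 to 5 and at 9.79, 7.79, 9.44, 15.1 and 11 in sham mice 1 to 5. The lowest nAAC mouse lay above the highest sham mouse. The mean was 33.4 ± 9.82 (SD, n = 5) against 10.6 ± 2.76, a log2 fold change of 1.54 ± 0.21 (SE; limma adjusted p = 1.51e-04). Tagln shares its locus with 2 genes on the other strand, Pcsk7, at a mean of 4.58 FPKM in nAAC and 4.03 in sham, and Gm48529, at 1.98 and 0.98, and the sources used here do not say whether strand was used in the quantification.

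Myh11, the smooth muscle myosin heavy chain and a highly specific marker of smooth muscle, was at 6.52, 12.9, 14.6, 15.4 and 9.62 FPKM in the nAAC mice. The sham mice had 4.65, 3.88, 4.57, 2.59 and 5.72 FPKM of Myh11, again with no overlap, although nAAC mouse 1 stood only slightly above sham mouse 5. The log2 fold change was 1.25 ± 0.22 (adjusted p = 9.33e-04). Cnn1, calponin 1, which damps actomyosin activity, was a low gene in this tissue. Its FPKM values were 2.55, 3.0, 4.24, 4.33 and 1.95 in nAAC and 0.632, 0.275, 1.38, 1.47 and 0.652 in sham, with a log2 fold change of 1.17 ± 0.21 (adjusted p = 0.00104). Both genes were highest in nAAC mouse 4, and neither overlapped between groups.

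Csrp1, a LIM-domain protein of actin filaments, was the last contractile gene called. It measured 26.3, 32.4, 38.3, 39.2 and 27.3 FPKM in nAAC and 13.6, 11.7, 13.5, 18.8 and 20.8 in sham, without overlap. Its log2 fold change of 1.03 ± 0.17 (adjusted p = 7.25e-04) lay close to the threshold for a call, and it fell short at 0.97 and 0.96 without nAAC mouse 3 or 4 and at 0.99, 0.94 and 0.98 without sham mouse 1, 2 or 3. The gene passed the adjusted p in each of these fits.

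Cald1 and Lmod1 rose below the threshold for a call. Cald1, caldesmon, which blocks myosin on actin at rest, stood at 20.9, 20, 21.5, 27.4 and 21.5 FPKM in nAAC and at 9.59, 12.7, 12.1, 8.32 and 14.2 in sham (log2 fold change 0.92 ± 0.15, adjusted p = 5.07e-04). Lmod1, leiomodin 1, which nucleates actin filaments in smooth muscle, was at 1.3, 2.26, 2.02, 2.28 and 1.38 FPKM in nAAC and 0.936, 0.38, 0.447, 0.546 and 0.993 in sham (log2 fold change 0.78 ± 0.15, adjusted p = 0.00168). Neither gene overlapped between groups. Mustn1, a small nuclear protein of muscle and skeletal tissue, had 3.65, 8.31, 8.87, 9.47 and 5.1 FPKM in nAAC and 3.41, 3.63, 2.91, 4.55 and 5.16 in sham. It overlapped, since nAAC mice 1 and 5 stood among the sham mice, and passed with a log2 fold change of 0.66 ± 0.22 and an adjusted p of 0.0348. It no longer passed with median-ratio scaling (limma adjusted p = 0.122), upper-quartile scaling (0.18), Xist as a covariate (0.144), all low genes kept (0.103) or GC content and length trends removed (0.115). The same held when 1 of 6 mice was left out, at an adjusted p of 0.0789, 0.0846 and 0.0933 without nAAC mouse 2, 3 or 4 and 0.0777, 0.0637 and 0.0842 without sham mouse 1, 2 or 3.

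The other 3 contractile genes did not pass. Smtn, smoothelin, a structural protein of fully contractile smooth muscle, had a mean of 27.1 ± 4.16 FPKM in nAAC and 28.9 ± 6.63 in sham, and the 95% interval of its log2 fold change ran from -0.43 to 0.29. Synpo2, an actin-bundling protein of the Z-disc, stood at 12.3 ± 1.33 against 11.2 ± 2.56 FPKM (interval -0.17 to 0.46). Myocd, myocardin, the SRF coactivator that drives the contractile program, was at 7.2, 7.7, 7.65, 7.15 and 7.26 FPKM in nAAC and at 9.73, 8.16, 8.63, 3.2 and 9.78 in sham. The nAAC mice were nearly equal while sham mouse 4 stood far below the other sham mice, and the log2 fold change was -0.01 ± 0.22 (interval -0.48 to 0.47, limma adjusted p = 0.978). Without sham mouse 4 it was -0.26, with an adjusted p of 0.0451. The contractile list thus held 7 genes that rose beside 3 whose intervals, unadjusted for the number of genes, ended below a log2 change of 0.5.

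**Figure D2:**
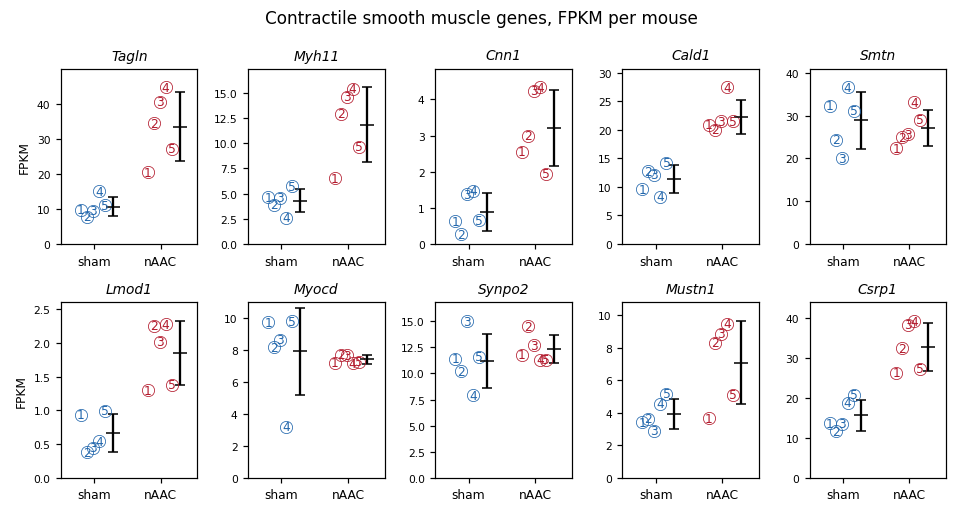
FPKM (vertical axis, linear from 0) of the 10 contractile smooth muscle genes in each of 5 sham and 5 nAAC mice, numbered by replicate, with bars for the mean ± SD. In Tagln, Myh11, Cnn1, Cald1, Lmod1 and Csrp1 every nAAC mouse lies above every sham mouse, whereas Smtn, Myocd, Synpo2 and Mustn1 overlap.

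Of the pericyte genes, Cspg4, Cygb, Heyl, Mcam, Higd1b, Notch3 and Pdgfrb rose, while Rgs5 and Abcc9, both widely used to find pericytes in heart, did not pass. Cspg4, which encodes NG2, had the smallest error. Its FPKM was 7.7, 6.31, 7.68, 5.84 and 5.89 in nAAC and 2.33, 2.08, 2.15, 1.77 and 2.96 in sham, means of 6.68 ± 0.936 and 2.26 ± 0.44. The log2 fold change was 1.24 ± 0.12 (adjusted p = 1.02e-05). The lowest nAAC mouse stood well above the highest sham mouse.

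Cygb, cytoglobin, an oxygen- and nitric oxide-binding globin of pericytes and fibroblasts, had the highest fold change of the pericyte list on the log2(FPKM + 1) scale, while with a pseudocount of 0.1 Cspg4 stood above it (1.53 against 1.37). It was at 48.4, 49.9, 58.5, 61.8 and 48.1 FPKM in nAAC and 18.3, 18.0, 16.5, 26.1 and 25.5 in sham (log2 fold change 1.33 ± 0.15, adjusted p = 3.27e-05). Heyl, a transcription factor switched on by Notch, was at 9.26, 9.42, 9.8, 11.1 and 11.1 FPKM in nAAC and 4.29, 3.76, 4.45, 3.38 and 6.11 in sham. Its log2 fold change was 1.06 ± 0.13 (adjusted p = 6.86e-05), and it lay below the threshold for a call without sham mouse 4 (0.99), with Xist as a covariate (0.95), after median-ratio (0.82) or upper-quartile scaling (0.77) and with GC content and length trends removed (0.65). Neither gene overlapped between groups.

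Mcam, Higd1b and Pdgfrb rose with no overlap between groups but below the threshold for a call. Mcam, the adhesion molecule CD146, was at 22.9, 19.4, 20.3, 27.1 and 24.3 FPKM in nAAC and 10.6, 12.8, 10.9, 9.6 and 15.5 in sham (log2 fold change 0.89 ± 0.14, adjusted p = 4.64e-04). Higd1b, a pericyte-enriched member of the hypoxia-inducible HIG1 domain family, was at 8.26, 8.7, 7.85, 11.6 and 8.92 FPKM in nAAC and 4.65, 4.88, 3.3, 7.33 and 4.86 in sham (log2 fold change 0.77 ± 0.16, adjusted p = 0.00333). Pdgfrb, the receptor that recruits pericytes, was at 17.8, 15.0, 17.2, 22.9 and 20.2 FPKM in nAAC and 11.8, 11.6, 11.5, 7.26 and 14 in sham (log2 fold change 0.69 ± 0.16, adjusted p = 0.00625). The increase of Pdgfrb no longer passed under median-ratio scaling (log2 fold change 0.43, adjusted p = 0.0586) or upper-quartile scaling (0.38, adjusted p = 0.072). Notch3, the mural Notch receptor, passed with an overlap of nAAC mouse 2 and sham mouse 5, at 9.85, 6.93, 8.53, 11.9 and 10.2 FPKM against 5.42, 5.4, 4.31, 2.94 and 7.45 (log2 fold change 0.81 ± 0.19, adjusted p = 0.00648). With Xist as a covariate, since sex is not in the labels, neither Pdgfrb (limma adjusted p = 0.0606) nor Notch3 (0.0767) passed, and with GC content and length trends removed the adjusted p was 0.0535 for Pdgfrb, 0.0548 for Notch3 and 0.0616 for Nes, a cytoskeletal gene described further on.

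Rgs5, a brake on G protein signalling and the most abundant pericyte gene here, did not separate the groups. It stood at 169.4, 124.4, 119.7, 200.1 and 199.3 FPKM in nAAC and at 140.1, 207.7, 189.5, 107.2 and 171.7 in sham. The means were 162.6 ± 39.0 and 163.2 ± 40.0, with a log2 fold change of 0.00 ± 0.21 (interval -0.46 to 0.45). Its paralog Rgs4 had 6.74, 6.32, 4.8, 9.83 and 8.38 FPKM in nAAC and 5.66, 8.11, 6.58, 4.86 and 5.33 in sham, also overlapping (log2 fold change 0.19 ± 0.17, interval -0.18 to 0.57). Abcc9, the regulatory subunit of the ATP-sensitive potassium channel of pericytes and heart muscle, was at 27.3, 23.3, 21.5, 32.1 and 31.6 FPKM in nAAC and 45.4, 48.2, 43.1, 20.5 and 47.8 in sham. Each nAAC mouse lay below 4 of the 5 sham mice, and sham mouse 4 lay below all 5 nAAC mice. With all 10 mice the log2 fold change was -0.53 ± 0.22 (limma adjusted p = 0.0825), and without sham mouse 4 it was -0.76 (adjusted p = 0.00103).

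Vtn, vitronectin, an adhesive matrix protein, stood at 9.67 ± 3.37 FPKM in nAAC and 11.3 ± 1.68 in sham, with a log2 fold change of -0.25 (interval -0.67 to 0.17). After median-ratio and upper-quartile scaling Abcc9 and Vtn both passed downward, Abcc9 at -0.81 and -0.86 and Vtn at -0.50 and -0.56. The genes of soluble guanylate cyclase, the nitric oxide receptor that relaxes smooth muscle, encode an alpha and a beta subunit. Gucy1a1 was at 6.59, 5.49, 6.54, 9.13 and 8.17 FPKM in nAAC and 6.06, 6.61, 5.89, 3.98 and 5.96 in sham (log2 fold change 0.29 ± 0.15, interval -0.04 to 0.61). Gucy1b1 was at 9.38, 8.26, 7.96, 10.8 and 11.5 FPKM in nAAC and 7.94, 9.87, 8.61, 6.41 and 9.26 in sham (log2 fold change 0.17 ± 0.14, interval -0.13 to 0.47). Both subunits overlapped between groups and neither passed.

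**Figure D3:**
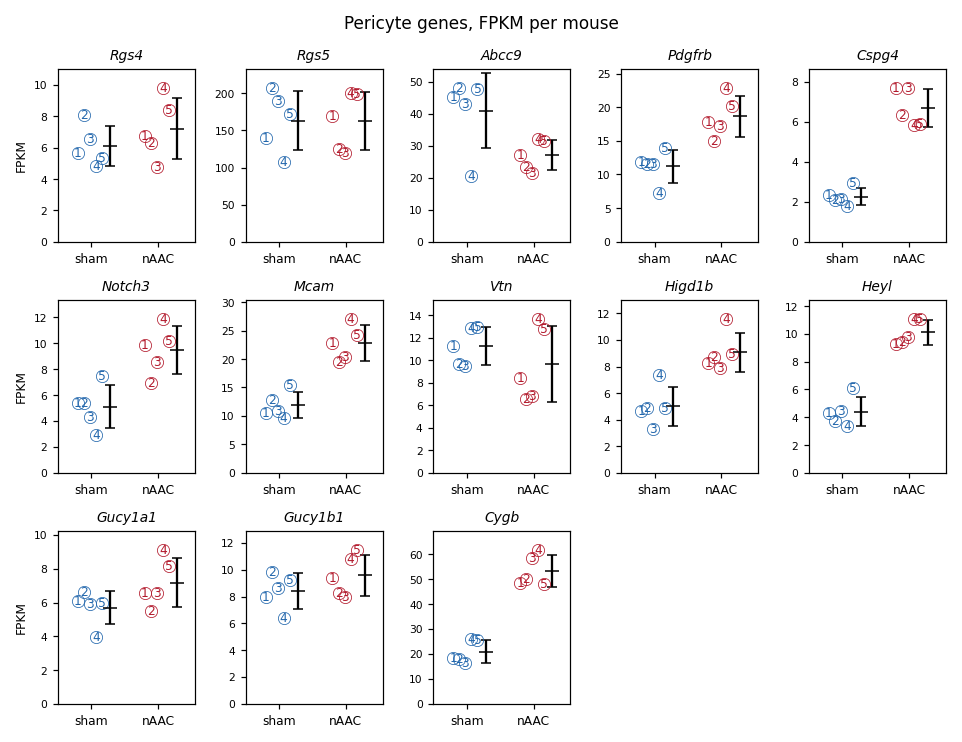
FPKM (vertical axis, linear from 0) of the 13 pericyte genes with values in each of 5 sham and 5 nAAC mice, numbered by replicate, with bars for the mean ± SD. Cspg4, Cygb, Heyl, Mcam, Higd1b and Pdgfrb separate the groups, Rgs5 does not, and in Abcc9 sham mouse 4 (20.5 FPKM) lies apart from the other sham mice (43.1 to 48.2).

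The broadly expressed cytoskeletal genes all separated the groups. Myh10, nonmuscle myosin heavy chain IIB, was at 10.4, 10.6, 12.3, 9.4 and 8.83 FPKM in nAAC and 3.96, 3.41, 3.53, 2.2 and 4.13 in sham (log2 fold change 1.36 ± 0.14, adjusted p = 1.35e-05). Csrp2, a LIM-domain protein related to Csrp1, was at 15.1, 20.8, 20.7, 27.3 and 14.6 FPKM in nAAC and 6.59, 5.4, 6.19, 11.3 and 7.04 in sham (log2 fold change 1.32 ± 0.20, adjusted p = 2.96e-04). Vim, vimentin, the intermediate filament of mesenchymal cells, was the most abundant gene of the set in nAAC. It stood at 191.5, 177.8, 172.5, 255.1 and 220.8 FPKM in nAAC and at 78.2, 108.6, 85.8, 73.4 and 101.8 in sham (log2 fold change 1.18 ± 0.16, adjusted p = 1.19e-04).

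Cnn2, the calponin of nonmuscle cells whose promoter with a CArG box is printed above, was at 9.91, 13.6, 18.7, 14.1 and 12.7 FPKM in nAAC and 4.25, 4.64, 5.5, 8.2 and 8.07 in sham. Its log2 fold change was 1.07 ± 0.19 (adjusted p = 0.0011), and 0.96, 0.97 and 0.99 without nAAC mouse 3, sham mouse 1 or sham mouse 2. Tagln2, the widely expressed transgelin, was at 54.8, 55.8, 51.2, 64.0 and 56.1 FPKM in nAAC and 25.0, 23.6, 23.4, 28.9 and 32.0 in sham (log2 fold change 1.06 ± 0.12, adjusted p = 3.82e-05). Both genes were called and had no overlap. Myh9, nonmuscle myosin heavy chain IIA, was at 16.7, 14.9, 15.4, 25.7 and 18.1 FPKM in nAAC and 7.75, 9.04, 8.09, 6.72 and 12.8 in sham (log2 fold change 0.96 ± 0.18, adjusted p = 0.00133). Nes, nestin, an intermediate filament of immature and regenerating cells, was at 6.34, 7.54, 7.07, 6.94 and 5.82 FPKM in nAAC and 3.02, 4.65, 3.66, 2.69 and 4.55 in sham (log2 fold change 0.73 ± 0.14, adjusted p = 0.00138). Myh9 and Nes rose but were not called with all 10 mice, and Myh9 would be called without nAAC mouse 2 (1.02), nAAC mouse 3 (1.01) or sham mouse 5 (1.09).

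**Figure D4:**
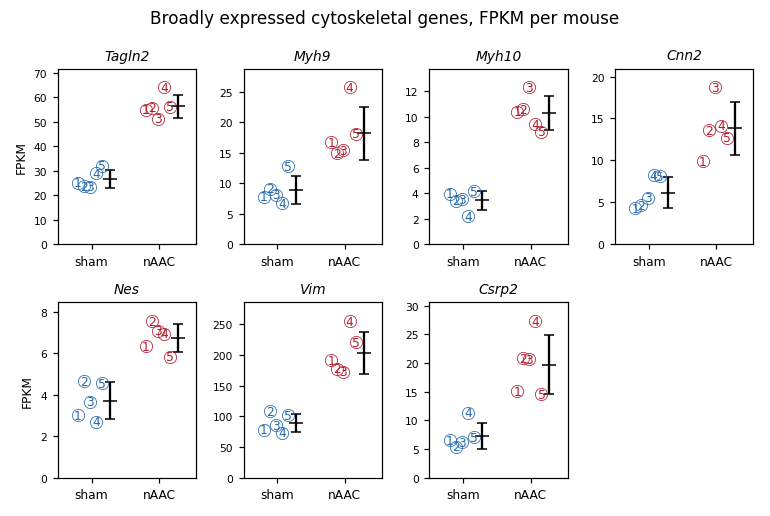
FPKM (vertical axis, linear from 0) of the 7 broadly expressed cytoskeletal genes in each of 5 sham and 5 nAAC mice, numbered by replicate, with bars for the mean ± SD. The groups do not overlap in any of the 7, and the levels range from Nes, with means of 6.74 and 3.71 FPKM, to Vim, with means of 203.5 and 89.6 FPKM.

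The remaining members were Pdgfb, the endothelial ligand of PDGFRB, and Susd5. Pdgfb was at 13.6, 11.2, 14.2, 20.5 and 16.7 FPKM in nAAC and 10.6, 9.09, 10.1, 9.39 and 14.5 in sham, with overlap. It passed narrowly (log2 fold change 0.46 ± 0.16, adjusted p = 0.0483), and leaving out any 1 of 8 mice gave an adjusted p from 0.0565 to 0.124, the exceptions being nAAC mouse 2 and sham mouse 5. Nor did it pass with median-ratio (limma adjusted p = 0.315) or upper-quartile scaling (0.448). Susd5 was below the filter on mean FPKM, at 0.308, 0.955, 1.4, 1.52 and 0.79 FPKM in nAAC and 0.292, 0.255, 0.4, 0.133 and 0.403 in sham. Its difference was 0.59 on the log2(FPKM + 1) scale (two-sided exact permutation test, p = 0.0238, unadjusted), with nAAC mouse 1 within the sham range.

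Smooth muscle and nonmuscle or sister forms of the same protein family were compared within mice, as the log2 ratio of their levels (log2(FPKM + 1)), in 8 pairs. The ratio of Tagln to Tagln2 was 0.48 higher in nAAC (95% interval -0.02 to 0.98; two-sided exact permutation test, p = 0.0714, adjusted over the 8 pairs 0.229). The ratio of Csrp1 to Csrp2 differed by -0.30 (interval -0.62 to 0.03; exact permutation p = 0.0556, adjusted 0.229). No pair passed, and the smallest p that 5 against 5 mice can give is 0.00794. For Cnn1 and Cnn2 the difference was 0.10 (interval -0.39 to 0.60), for Myh11 and Myh9 0.29 (-0.25 to 0.84) and for Myh11 and Myh10 -0.10 (-0.59 to 0.38). The ratio of Myh9 to Myh10 differed by -0.40 (-0.90 to 0.10). The 2 guanylate cyclase subunits had the narrowest interval, from -0.05 to 0.28, and Rgs4 and Rgs5 one from -0.08 to 0.47.

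The contractile and the pericyte list were then set side by side in each mouse, as the mean over the list of log2(FPKM + 1) after centring each gene. The contractile level was 0.04, 0.45, 0.54, 0.63 and 0.19 in nAAC mice and -0.35, -0.54, -0.38, -0.44 and -0.15 in sham mice. The pericyte level was 0.23, 0.04, 0.09, 0.52 and 0.40 in nAAC mice and -0.26, -0.17, -0.30, -0.51 and -0.04 in sham mice. Neither list overlapped between groups, but the order of the nAAC mice differed between them. Mice 3 and 2 came just below mouse 4 in contractile level and were at the bottom in pericyte level. The contractile minus the pericyte level was -0.19, 0.40, 0.45, 0.11 and -0.20 in nAAC and -0.09, -0.37, -0.08, 0.07 and -0.11 in sham, so the groups overlapped, with means of 0.12 ± 0.31 and -0.12 ± 0.16. The difference between the medians of the list fold changes was 0.16. Cnn1 and Lmod1, which entered the test only through the nAAC group, were kept in the contractile list here. Without them its median fold change was 0.79, against 0.69 for the pericyte list. Taken in single mice, the median contractile minus the median pericyte level had a pooled within-group SD of 0.28. That SD describes single mice and is not an error of the 0.16, which was given no test.

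Atrial markers moved with this split of the nAAC mice. The summed FPKM of Myl7, Sln and Myl4, proteins of atrial muscle, was 2.71, 134.3, 227.0, 28.3 and 2.03 in nAAC and 44.7, 7.85, 7.77, 3.05 and 16.0 in sham. It was highest in nAAC mice 2 and 3, the mice with the highest contractile minus pericyte level, and lowest in mice 1 and 5, which had the lowest. The sham mice did not follow this order. Among them mouse 4 had the lowest atrial sum (3.05) and the highest contractile minus pericyte level (0.07). Sham mouse 1 had the highest sum (44.7) at a level of -0.09. The groups overlapped, 0 of the 3 atrial genes passed by limma (0 also at an unadjusted p below 0.05), and Sln was listed at 0 in nAAC mouse 1. With nAAC mice 2 and 3 both left out, a choice made after seeing the data, 12 of the 31 genes were still called and 21 rose, and the contractile minus pericyte difference of medians became -0.01. In that fit 5.1% of all genes tested were called up and 19.5% passed upward. With Myl7 as a covariate, also added after seeing the data, 11 of the 31 were called and 21 rose. The shares of all genes tested were then 5.01% and 24.2%. The part of atrial tissue in the order of the mice was not tested.

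**Figure D5:**
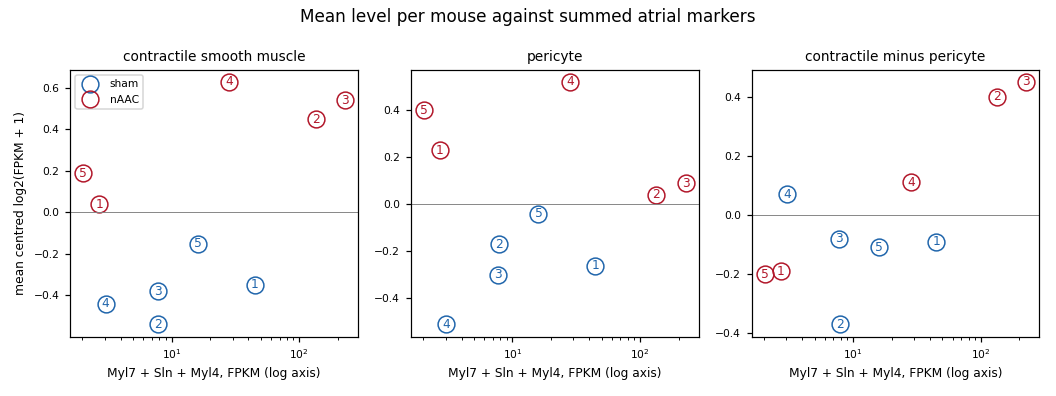
Mean centred log2(FPKM + 1) of the contractile list, of the pericyte list and of their difference (vertical axes) against the summed FPKM of Myl7, Sln and Myl4 (horizontal axis, log scale), each point being 1 mouse numbered by replicate. The nAAC mice lie above the sham mice in both lists, and nAAC mice 2 and 3, with 134.3 and 227.0 FPKM of atrial markers, have the highest difference between the lists. Among the sham mice, mouse 4 has the highest difference (0.07) with the lowest atrial sum (3.05 FPKM).

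Within the nAAC group, mouse 4 was the highest in 8 of 10 contractile and 10 of 13 pericyte genes. Mouse 1 or 5 was the lowest in 7 of the 10 contractile genes, and mouse 2 or 3 in 10 of the 13 pericyte genes. Within the sham group, mouse 4 was the lowest in 18 of 31 genes, among them 10 of the 13 pericyte genes, and the highest in 7. The genes in which it was lowest had a median transcript length of 5268.5 bases, from 2926 to 9203, against 2331 in those where it was highest and 1786 in the other 6. Its mitochondrial share of TPM, 33.7%, was also below that of the other sham mice, which had 38.3% to 49.8%. The part of transcript length or RNA quality in the values of this library was not tested. Without it 11 of the 31 genes were called, 21 rose, and Abcc9 and Myocd passed downward. In that fit 5.63% of all genes tested were called up and 33.2% passed upward.

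Markers of other cells were read beside these results. Of 7 fibroblast markers 6 rose (85.7%) and 3 were called (42.9%), against 27.1% and 5.01% of all genes tested. Cthrc1, among those called, entered the test only through the nAAC group, with means of 2.06 FPKM in nAAC and 0.156 in sham. The summed FPKM of the 7 markers was 481.7 to 867.5 in nAAC and 344.6 to 370.6 in sham, with no overlap. The largest fold change among them was that of Postn, periostin, of activated fibroblasts, at a mean of 171.0 against 11.4 FPKM. Since Vim, Cald1, Cygb, Myh9, Myh10 and Tagln2 are also made by fibroblasts, these values stand beside all 3 lists, and the part of fibroblasts in the increases was not tested. That limit covers the called contractile genes Tagln, Myh11, Cnn1 and Csrp1 as well, since bulk tissue cannot assign them to smooth muscle cells alone. Of 7 endothelial markers 1 rose (Kdr), with sums of 369.1 to 773.4 and 461.7 to 782.2. Of 7 cardiomyocyte markers 1 rose (Actn2) and 1 fell (Tnni3), with sums of 8875 to 15124 and 10211 to 22147. Of 5 macrophage markers 1 rose (C1qa), with sums of 46.7 to 92.0 in nAAC and 23.4 to 51.1 in sham. The 5 mesothelial markers had 0 that passed by limma and 1 with an unadjusted p below 0.05, and sums of 7.48 to 24.0 and 6.55 to 11.5. All of these sums other than that of fibroblasts overlapped between groups.

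Other genes of the same pathways were taken from lists that were not chosen by how they moved in this comparison, though earlier results were known. Of 22 tested genes of smooth muscle contraction and of SRF and its coactivators, 17 rose, 8 were called and 0 fell in the limma fit (1, Tpm1, was lower at an unadjusted p below 0.05), with a median log2 fold change of 0.79. In this list 77.3% rose and 36.4% were called up, against 27.1% and 5.01% of all genes tested. Some of these genes stood far above Myh11, whose means were 11.8 FPKM in nAAC and 4.28 in sham. Des had means of 896.9 and 364.3 FPKM, and Tpm1 of 3423 and 4678. The list was read in whole tissue and is not limited to smooth muscle cells. The part of heart muscle cells in it was not tested. Tpm2, beta-tropomyosin, rose by 2.62, from a mean of 7.39 to 53.8 FPKM. Other called genes were Actn1 (1.43), Actg2, the enteric smooth muscle actin (1.38), Des, desmin (1.35), Flna, filamin A (1.11), Myl9, the regulatory light chain of smooth muscle myosin (1.04), and Srf (1.0). Actg2 entered the test only through the nAAC group, with means of 2.85 FPKM in nAAC and 0.463 in sham. Myl9 overlapped between groups, with nAAC mouse 1 at 16.8 FPKM inside the sham range of 15.0 to 19.5. Srf stood at 33.1, 31.4, 44.9, 35.1 and 36.0 FPKM in nAAC and at 20.7, 13.2, 12.8, 20.1 and 22.4 in sham (adjusted p = 8.00e-04). Srf thus rose with no overlap while its coactivator Myocd did not pass. Myl6 (1.0), Pdlim3 (0.96) and Acta2 (0.85) were the next by size.

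Acta2, smooth muscle alpha-actin, was at 35.5, 81.7, 77.0, 84.5 and 63.6 FPKM in nAAC and 50.2, 38.4, 36.8, 27.8 and 29.8 in sham (limma adjusted p = 0.0146). It overlapped between groups, with nAAC mouse 1 inside the sham range, the same mouse that was lowest in Tagln, Myh11 and Mustn1. Mrtfa, a coactivator of SRF that is released when actin polymerizes and that was singled out after its values were seen, rose by 0.59 (adjusted p = 0.00148), and Mrtfb at 0.25 did not pass.

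Of 12 other pericyte markers, 4 rose, 1 fell and 1 was called, with a median log2 fold change of 0.29 near that of all genes. The shares that rose (33.3%) and were called up (8.33%) lay near the 27.1% and 5.01% of all genes tested. The called gene was Foxs1, a forkhead factor of mural cells, at 3.67 against 1.01 FPKM (log2 fold change 1.23, adjusted p = 9.01e-05). Ndufa4l2, after which Ndufa4l2os is named, rose by 0.64 (adjusted p = 0.045), and Gja4, a gap junction protein, by 0.59 (adjusted p = 0.0244). P2ry14 fell by 0.46 on the log2 scale (adjusted p = 0.0465). Kcnj8, which forms the ATP-sensitive potassium channel together with Abcc9, had means of 15.5 and 15.3 FPKM (adjusted p = 0.992).

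Of 16 tested ligands, receptors and effectors of PDGF, Notch and angiopoietin signalling to mural cells, 3 rose and 1 fell. The share that rose, 18.8%, was below the 27.1% of all genes tested. The gene that fell was Angpt1, the ligand by which mural and heart muscle cells steady the endothelium, and it was the only one called. Angpt1 was at 1.35, 1.52, 0.629, 1.7 and 1.4 FPKM in nAAC and 14.9, 18.0, 16.5, 17.1 and 8.99 in sham, with a log2 fold change of -2.78 ± 0.19 (adjusted p = 4.46e-07). The genes that rose were Notch4 (0.59, adjusted p = 0.0109), Notch1 (0.50, adjusted p = 0.0257) and Jag1 (0.38, adjusted p = 0.0366), while Jag2 at 0.43 did not pass (adjusted p = 0.0955). Of 6 tested genes of nitric oxide and cGMP signalling, Prkg1, the cGMP-dependent kinase downstream of the guanylate cyclase, and Vasp, one of its substrates, each rose by 0.75 (adjusted p = 0.00109 and 0.0144). The share of this list that rose was 33.3%, near the 27.1% of all genes tested. Nos3, the endothelial nitric oxide synthase, had a log2 fold change of 0.38 (adjusted p = 0.118).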

How the data were processed

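LV RNA of 5 nAAC and 5 sham mice was compared, grouped by the labels, with 1 library per mouse. The labels name the RNA library kit but not whether strand was kept, and the aligner, the quantification tool and the use of strand are not given in the sources used here. The build in the submitters' processing notes is mm10. The tables have the layout of StringTie gene abundances, and 99.4% of 55141 genes shared with GENCODE M21 had the same coordinates, all 32 members included.

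For each gene the authors deposited 3 values, namely coverage, FPKM and TPM. The deposited coverage is the average depth over the bases of the gene. The deposited FPKM is scaled by the authors for depth and length, but not for differences in RNA composition, and the deposited TPM is rescaled to a fixed total. Rows sharing a gene ID were summed. Depth was inferred from the commonest quotient of FPKM and coverage in a library, held by 12.1% to 16.5% of the genes, so it is an estimate only. No read counts are in the tables. A count model had been planned in case of counts, with limma for normalized values, and limma was therefore used.

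limma 3.58.1 (R 4.3.3) was run with an intensity trend in its empirical Bayes step, on log2(FPKM + 1) of the 11867 genes whose mean FPKM reached 1, two-sided, with Benjamini-Hochberg adjustment over all of them and no covariate. Calls needed an adjusted p under 0.05 together with a log2 fold change above 1 in size, the thresholds the study names. Exact permutation tests of 5 against 5 mice were used for the paralog ratios and for the gene below the filter. In simulated data, 190 of 200 genes changed by 1.5 on the log2 scale were called among 11867, with 0 unchanged genes called, and without any change 5.1% of p-values were under 0.05. The noise was normal, independent between genes and equal in both groups, with no shift over all genes. Changed genes were drawn from those with a mean log2 level above 1. The simulation therefore does not address how calls depend on scaling or on single libraries. No 2 libraries of the 45 pairs held identical values.

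The members, the lists and the tests were chosen with earlier results of these data known. Values in every mouse are given for members that were called, that passed without overlap or that belong to a paralog pair, and for some others. Of the pathway lists, called genes and the next by size are named, except for 1 gene that is not reported here. The alternatives tried were TPM, scaling by median ratio or by upper quartile, Xist as a covariate, no filter or one at a mean FPKM of 0.5, a replicate block, a pseudocount of 0.1, removal of GC content and length trends, other call thresholds, narrower lists and leaving out each mouse. Myl7 as a covariate and leaving out nAAC mice 2 and 3 together were added after seeing the data. Python 3.11.15 with pandas 2.3.3, scipy 1.17.1 and matplotlib 3.10.9 was used for the rest.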

Additional observations from a re-analysis of the deposited data

Results flagged for a closer look

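In 72 groups of 5 values (32 genes and the list scores, in nAAC and in sham), the gap between the most extreme mouse and its neighbour was divided by the range of the group. For genes this ratio was taken on log2(FPKM + 1), while the levels below are printed in FPKM. Of the groups, 5 exceeded Dixon's critical value of 0.71. Chance flags about 1 in 20, or 3.6 of 72. In 3 of the 5 the extreme mouse was sham mouse 4 at the lowest level. These were Abcc9 (20.5 FPKM against 43.1 to 48.2 in the other sham mice, ratio 0.87), Myocd (3.2 FPKM, ratio 0.83) and Gucy1a1 (3.98 FPKM, ratio 0.76). Their transcripts are 7499, 5114 and 4710 bases long. Cald1 was highest in nAAC mouse 4 (27.4 FPKM against 20 to 21.5, ratio 0.77). The mean level of the cytoskeletal genes was highest among sham mice in mouse 5 (-0.29 on the centred log2 scale, ratio 0.72).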

How the results depend on the processing

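Of the 31 genes, 12 were called up, against 7 with median-ratio scaling, 3 with upper-quartile scaling, 3 with GC content and length trends removed and 22 with an adjusted p below 0.05 alone. Genes that passed downward, 0 at first, numbered 2, 2 and 3 in the first 3 of these. These alternatives lowered the median of all genes by 0.22 to 0.27, and the calls up and down over all genes went from 595 and 106 to 371 and 207 with median-ratio scaling. The share of all genes called up went from 5.01% to 3.13%, 2.74% and 2.69% in these 3. With 1 mouse left out, 4.61% to 5.77% of all genes were called up and 19.9% to 33.2% passed upward. Among the 31, leaving out each mouse gave 10 to 14 called up, 20 to 22 passing upward and 0 to 2 downward (2 without sham mouse 4), and a contractile minus pericyte difference of 0.08 to 0.23. That difference, 0.16 at first, reversed to -0.01 without nAAC mice 2 and 3. TPM gave 17 called, where 8.25% of all genes were called up. Xist as a covariate gave 8, where 4.16% of all genes were. The replicate block gave 12 called, 22 passing and a difference of 0.16, and changed no call of the set. With it 5.04% of all genes were called up and 24.7% passed upward. No pairing by replicate number was seen. The correlation of same-numbered deviations ran from -0.32 to 0.19, and 0 of the 5 numbers correlated best with their own. These correlations cannot exclude that mice shared a litter. Over the alternatives, 581 gene values kept direction and side of the adjusted p threshold of 0.05, 32 became weaker, 10 stronger and 28 reversed. The fold threshold had no part in this count. Myh11 with upper-quartile scaling (0.96), for instance, lost its call and is among the values kept. Those that reversed belong to genes near 0 or passing narrowly. They were Smtn (0.10 with TPM), Myocd (0.15 with TPM, 0.01 with a pseudocount of 0.1, 0.10 with Xist), Synpo2 (-0.11, -0.17 and -0.13 with median-ratio scaling, upper-quartile scaling and trends removed), Rgs4 (-0.05 and -0.10 with the 2 scalings), Gucy1a1 (-0.01 with upper-quartile scaling), Gucy1b1 (-0.08 and -0.14 with the 2 scalings), Pdgfb (-0.00 with trends removed), Rgs5 (0.17 with TPM, 0.07 with Myl7, 0.25 without nAAC mice 2 and 3) and Vtn (0.03 without those mice). Leaving out 1 mouse took Smtn to between -0.19 and 0.02, Myocd to between -0.26 and 0.08 and Rgs5 to between -0.14 and 0.10. The cause of these changes was not tested. With no read counts, the counting error of low genes such as Cnn1, Lmod1 and Susd5 is unknown.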
